A study of Mus musculus with 2 samples.

Results

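The expression of 4 genes of the reelin pathway was examined in the embryonic mouse telencephalon: *Reln*, which encodes the secreted ligand reelin, *Lrp8* and *Vldlr*, which encode its receptors ApoER2 and VLDLR, and *Dab1*, which encodes the adaptor that relays the signal. They were taken by symbol from the 32285 genes of the count files, in which each of the 4 symbols has 1 row, and all 4 passed the filter on low counts that left 13472 genes to be tested. The data are 2 single-cell RNA-sequencing libraries of 1 group, WT, from embryonic day 14.5 (E14.5), labelled replicates 1 and 3. The submitters describe the embryos as controls of an EomesMllt3 line, the study's methods as C57BL/6J, and the tissue as the dorsal telencephalon or, on the sample labels, brain hemispheres. No treatment or mutant was compared, so the comparisons below are between cell classes of the same 2 libraries. In the study these libraries served to ask which signals of somatostatin-positive (SST+) cortical interneurons could reach the cortical progenitors, that is radial glial cells (RGCs) and the intermediate progenitors (IPCs). Nothing in the labels says whether the libraries came from separate embryos, so p-values measure only the spread between these 2 samples, which may be technical.

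Reelin is a large glycoprotein of the extracellular matrix that Cajal-Retzius cells release at the surface of the cortex, and some interneurons make it as well. It binds ApoER2 and VLDLR on radial glia and migrating neurons, Src family kinases then phosphorylate Dab1 at the inner face of the membrane, and phosphorylated Dab1 recruits effectors that act on adhesion and the cytoskeleton before it is degraded. Mice without reelin, without Dab1 or without both receptors share a cortex whose layers are misplaced.

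The 2 libraries held 6163 and 8870 barcodes with 64182006 and 93295807 unique molecular identifiers (UMIs, counts of single captured RNA molecules), and medians of 9802 and 9754 UMIs per barcode. They shared 23 barcodes. After filtering, 5184 and 6952 cells remained, 12136 in all, which formed 25 clusters. The 4 genes were left out of the genes used for clustering and of the marker lists. Class names end in "-like" because they rest on markers and not on a deposited annotation. The classes used most are RGC-like cells (706 and 1596 cells in replicates 1 and 3), IPC-like cells (522 and 952), newborn neuron-like cells (1749 and 2102), projection neuron-like (PN-like) cells (1105 and 1300), Cajal-Retzius-like cells (42 and 86) and interneuron-like cells of the medial ganglionic eminence (MGE; 333 and 220). The Cajal-Retzius-like cluster met the marker criterion for all 9 of its listed genes. Some classes were unequal between the libraries, with 23 and 143 hem or choroid plexus-like cells and 436 and 31 cells of a GABAergic class named for the lateral ganglionic eminence (LGE neuron-like). The latter met the criterion for 6 of 7 LGE markers and also for 4 of 6 markers of caudal ganglionic eminence (CGE) interneurons, and at a clustering resolution of 2.0 in place of 1.0, 262 and 27 of its cells were named CGE interneuron-like, 116 and 1 LGE neuron-like and 57 and 3 PN-like, so it is a mixed class. Levels are given as CPM, the UMIs of a gene per 1000000 UMIs summed over all cells of a class in 1 replicate.

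*Reln* RNA was concentrated in Cajal-Retzius-like cells. There it stood at 9928 CPM in replicate 1 and 8137 CPM in replicate 3 (6779 and 9256 UMIs), with a mean of 9032 ± 1267 CPM (SD, n = 2). These cells were 1.05% of all cells and carried 73.6% of all *Reln* UMIs. The next class, MGE interneuron-like cells, reached 425 CPM in replicate 1 and 446 CPM in replicate 3. LGE neuron-like cells had 265 and 569 CPM, a range that contains the MGE values, so the order of these 2 classes was not resolved. The single LGE neuron-like cluster was led by *Gnrh1*, *Adarb2* and *Isl1*, of which *Adarb2* is a marker of the CGE, and its value in replicate 3 rests on 31 cells and 86 *Reln* UMIs.

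Below these came hem or choroid plexus-like cells at 112 and 179.5 CPM, but in replicate 3, 207 of the 328 UMIs lay in 1 of 143 cells, and without that cell the value was 68.1 CPM. Newborn neuron-like cells had 39.7 and 51.6 CPM and PN-like cells 25.8 and 41.7 CPM, and these ranges overlapped. The progenitors were lowest among the neural classes, with 9.54 and 11.95 CPM in IPC-like and 5.78 and 6.72 CPM in RGC-like cells. Red blood cell-like cells, which should hold no *Reln* RNA of their own, gave 2.88 and 3.77 CPM from 1 and 2 UMIs. A microglia-like value of 38.8 CPM in replicate 1 came from 13 UMIs in 1 cell, and replicate 3 had none.

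**Figure D1:**
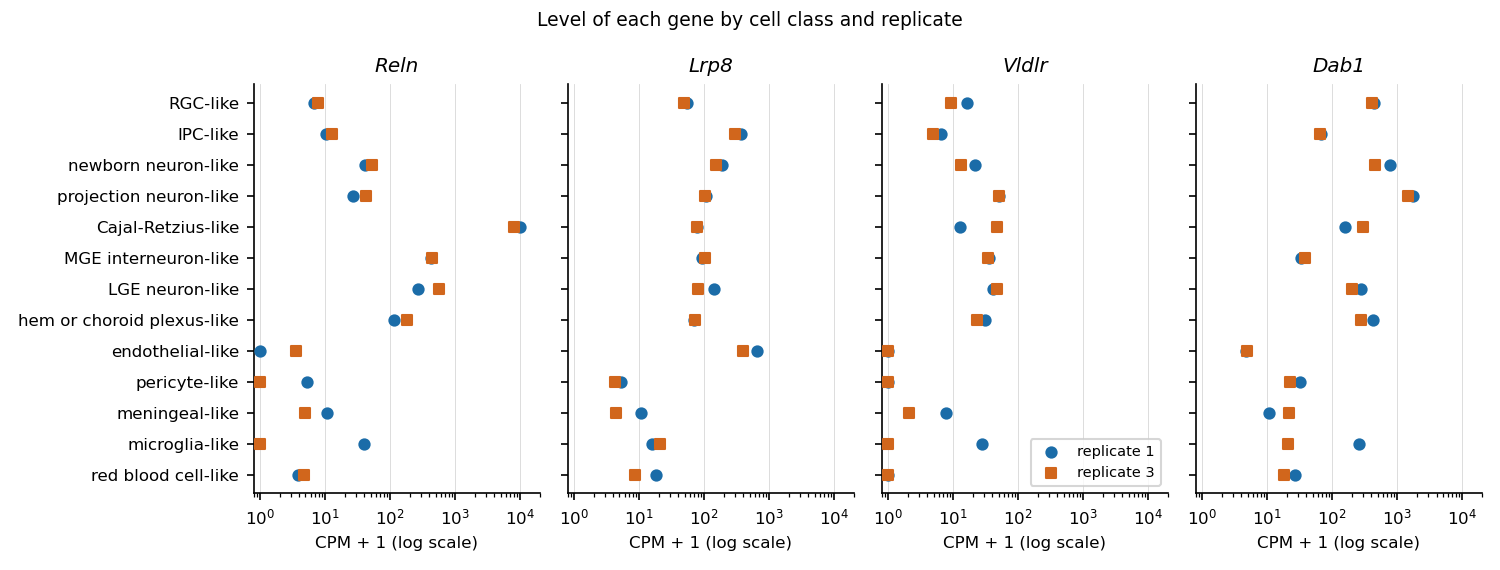
Level of the 4 genes in 13 named cell classes, as CPM + 1 on a log axis, with 1 point for each replicate. *Reln* is highest in Cajal-Retzius-like cells (9928 and 8137 CPM), *Lrp8* in endothelial-like and IPC-like cells, and *Vldlr* (49.97 and 48.9 CPM) and *Dab1* (1713 and 1458 CPM) in PN-like cells.

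*Reln* lies on chromosome 5 (ENSMUSG00000042453, 21884454 to 22344705, minus strand), *Dab1* on chromosome 4 (ENSMUSG00000028519, 103619500 to 104744844, plus strand), *Lrp8* on chromosome 4 (ENSMUSG00000028613, 107802200 to 107876840, plus strand) and *Vldlr* on chromosome 19 (ENSMUSG00000024924, 27216480 to 27254231, plus strand), in the RefSeq annotation of GRCm38.p6, the assembly also called mm10. The *Reln* and *Dab1* promoters are shown because *Reln* and *Dab1* had the largest log2 fold changes of the 4 genes and because both are dense in CG dinucleotides, the sites of DNA methylation, which are in capitals and read the same on both strands. All 4 genes had entries in the RefSeq promoter table. Each is the stretch of 250 bases that ends just before an annotated start, read 5′ to 3′ on the strand of the gene. The *Reln* stretch is chr5:22344706-22344955 on the minus strand and holds 37 CGs, and the *Dab1* stretch is chr4:104367288-104367537 on the plus strand, at the more downstream of 2 listed starts, and holds 40.
Reln: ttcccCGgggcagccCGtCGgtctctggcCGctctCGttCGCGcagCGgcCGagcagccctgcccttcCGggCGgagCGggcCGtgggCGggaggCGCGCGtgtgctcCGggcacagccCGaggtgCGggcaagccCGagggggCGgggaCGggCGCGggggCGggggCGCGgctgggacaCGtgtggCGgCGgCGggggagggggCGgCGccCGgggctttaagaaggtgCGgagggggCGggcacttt
Dab1: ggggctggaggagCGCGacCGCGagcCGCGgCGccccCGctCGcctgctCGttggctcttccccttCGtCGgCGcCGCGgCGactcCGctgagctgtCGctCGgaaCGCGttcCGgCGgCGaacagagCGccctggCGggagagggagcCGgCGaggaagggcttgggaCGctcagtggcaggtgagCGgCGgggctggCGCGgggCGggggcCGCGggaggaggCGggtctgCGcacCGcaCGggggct

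Over windows of 300 bases (250 before and 50 after the start) the *Reln* promoter held 47 CGs, and 1.44% of the 32851 promoters in the table held as many or more, against a median of 7. The *Dab1* window held 46, reached by 1.65% of promoters, and its other listed window 12. The 3 listed windows of *Lrp8* held 21, 5 and 4 CGs and the 2 of *Vldlr* 8 and 23. These counts describe the reference letters only, since methylation was not measured in these libraries.

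Within the Cajal-Retzius-like class nearly every cell carried the transcript. *Reln* UMIs per cell ranged from 0 to 586 with a median of 151.5 in replicate 1, and from 0 to 484 with a median of 95 in replicate 3, and 1 cell in each replicate had none. Per 10000 UMIs of the cell the medians were 93.8 and 76.6. In the MGE class, 216 of 333 and 127 of 220 cells had no *Reln* UMI, and the highest cells had 39 and 22. The level of the MGE class was carried by part of its cells.

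A threshold of 10 *Reln* UMIs, chosen after the values had been seen, was passed by 242 cells. Of these, 113 were Cajal-Retzius-like, 38 newborn neuron-like, 36 MGE interneuron-like, 27 PN-like and 20 LGE neuron-like, and the remaining 8 lay in 3 other classes. These cells were compared with the markers of the 2 known *Reln*-producing types, counting a cell as positive with UMIs of at least 3 of the 9 Cajal-Retzius markers or of at least 3 of 9 GABAergic markers. The threshold and the marker rule used UMIs without thinning, and the part of cell depth in the shares that follow was not tested. In the MGE class 35 of the 36 cells were positive for GABAergic markers, as were 94.0% of the 517 MGE cells under the threshold. In the LGE class it was 10 of the 20 cells, against 84.8% of the 447 under the threshold. In the newborn class, 1 of the 38 cells was positive for Cajal-Retzius markers and 1 for GABAergic markers. Among its 3813 cells under the threshold these shares were 0.0262% and 0.0787%. In the projection neuron class, 4 of the 27 were positive for Cajal-Retzius markers, against 0.0421% of the 2378 cells under the threshold, and none for GABAergic markers. The 27 cells were split unequally between the libraries, with 5 of 1105 cells in replicate 1 and 22 of 1300 in replicate 3, and the part of the library in this was not tested.

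**Figure D2:**
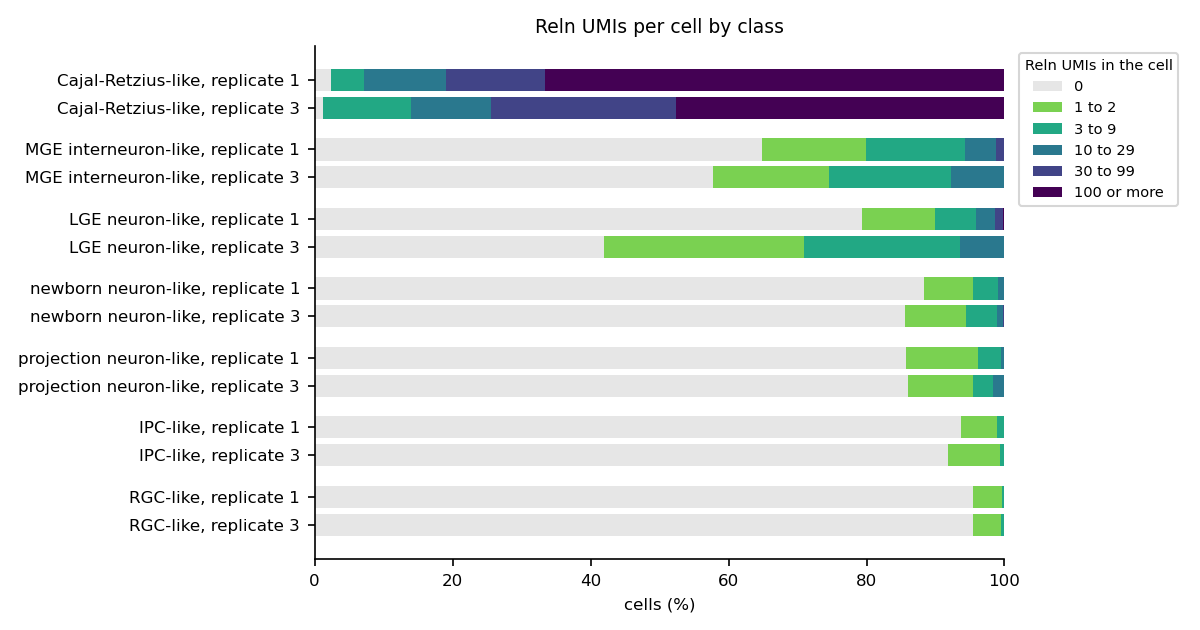
Percentage of cells (x axis) with 0, 1 to 2, 3 to 9, 10 to 29, 30 to 99 and 100 or more *Reln* UMIs, 1 bar for each of 7 classes and replicate. Most Cajal-Retzius-like cells lie at 30 UMIs and above, while most cells of every other class shown lie at 0, except LGE neuron-like cells of replicate 3, of which 13 of 31 had none.

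The class differences of *Reln* were then tested. Cajal-Retzius-like cells exceeded PN-like cells by 7.76 ± 0.59, adjusted p = 1.07e-08 (log2 fold change ± SE, the form used for all tests below), and by 8.30 and 7.28 in the replicates taken singly. Between these classes 21.2% of the 13472 genes were called at an adjusted p below 0.05, 10.9% higher and 10.3% lower in Cajal-Retzius-like cells. Against MGE interneuron-like cells the difference was 4.18 ± 0.50, adjusted p = 3.93e-06, where 32.9% of genes were called, 17.4% higher and 15.4% lower. MGE interneuron-like cells in turn exceeded PN-like cells (3.59 ± 0.49, adjusted p = 1.64e-05), in a comparison that called 26.8% of genes, 11.7% higher and 15.1% lower. With library sizes in place of the TMM scaling, the higher genes made up 74.8% of calls in place of 51.5% between Cajal-Retzius-like and PN-like cells, 67.3% in place of 53.0% against MGE interneuron-like cells, and 54.1% in place of 43.7% between MGE interneuron-like and PN-like cells, where DESeq2 gave 53.8%. The direction of *Reln* was the same under each of these scalings.

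Along the projection neuron lineage *Reln* rose from IPC-like to newborn neuron-like cells (2.19 ± 0.48, adjusted p = 0.00131), a step at which 31.0% of genes were called, 16.3% higher and 14.6% lower. With library sizes only, the higher genes were 42.6% of these calls in place of 52.8%. The steps on either side did not pass the threshold. IPC-like against RGC-like cells gave 0.79 ± 0.49, adjusted p = 0.27, and 26.2% of genes were called there, 10.2% higher and 16.0% lower. That step rests on 56 and 118 UMIs in IPC-like and 56 and 137 UMIs in RGC-like cells, and it passed the threshold in 6 of the alternatives, among them the stricter filter on cells (1.60, adjusted p = 0.00274). Projection neuron-like against newborn neuron-like cells gave -0.40 ± 0.44, adjusted p = 0.663, in a comparison that called 13.5% of genes, 7.17% higher and 6.38% lower.

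**Figure D3:**
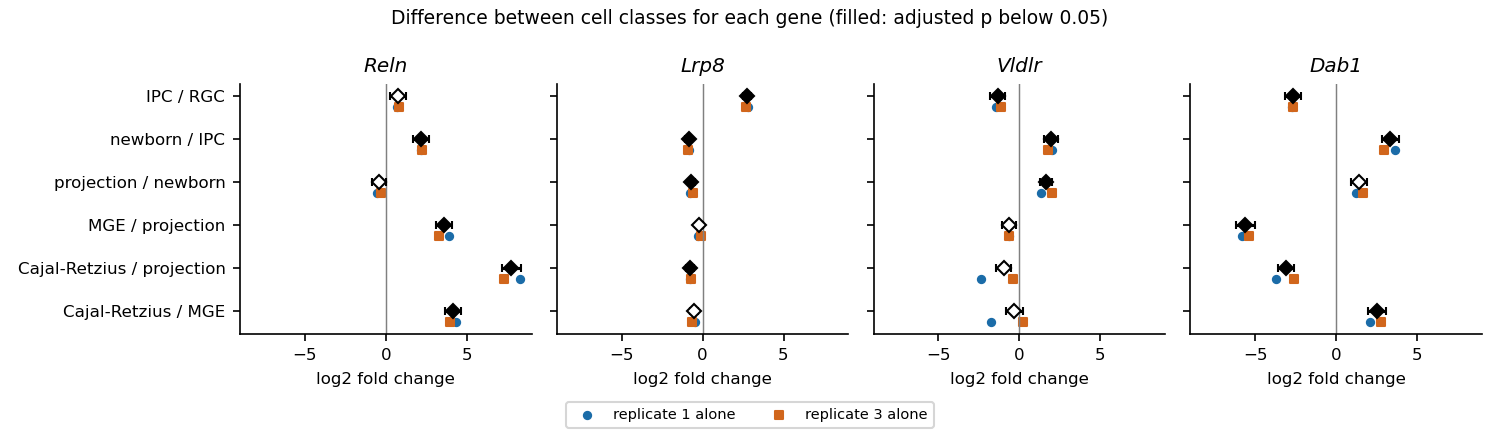
Log2 fold change of each gene in 6 comparisons of cell classes, the first-named class against the second. Diamonds are the fit with its standard error, filled where the adjusted p is below 0.05, and the small symbols below them are the difference within each replicate. *Reln* is higher in Cajal-Retzius-like and MGE interneuron-like than in PN-like cells, *Lrp8* and *Dab1* move in opposite directions at the IPC / RGC and newborn / IPC steps, and the 2 replicates of *Vldlr* lie apart in Cajal-Retzius-like cells (-2.38 and -0.42 against PN-like cells).

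SST+ interneurons, which the study follows, arise in the MGE. After each cell was thinned to 3000 UMIs, so that cells were read at 1 depth, a *Reln* UMI was found in 85 of 265 cells (32.1%, 26.7 to 37.9% by the Wilson 95% interval) of replicate 1 and in 56 of 157 cells (35.7%, 28.6 to 43.4%) of replicate 3. Such intervals cover counting error only. Without thinning these shares were 35.1% and 42.3%. Among MGE interneuron-like cells with an *Sst* UMI, 38.6% of 57 and 46.7% of 45 cells also had a *Reln* UMI, and among those without one 30.3% of 208 and 31.2% of 112. Both replicates were higher in the *Sst* cells, and the difference was not tested. In red blood cell-like cells the share with a *Reln* UMI was 0% and 1.67% (0 of 48 cells allows up to 6.25%), at median depths of 6431 and 7447 UMIs of the cells read, against 5279 and 4825 UMIs in the MGE class. The shares of 1.46% and 1.09% in RGC-like and 1.93% and 3.17% in IPC-like cells lay within the intervals of that background.

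Interneurons of the CGE, another source of reelin, formed no cluster of their own at the clustering resolution used. At a resolution of 2.0 they did, with 263 and 27 cells, of which all but 1 belonged to the LGE neuron-like class above, and with *Reln* at 186 and 629 CPM. The replicates lay on either side of both MGE values, and against MGE interneuron-like cells the log2 fold change was -0.56 ± 0.48, adjusted p = 0.617. *Dab1* was higher in the CGE than in the MGE class (2.75 ± 0.54, adjusted p = 0.003), at 321 and 202 CPM.

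Of the receptors, *Lrp8* was highest in endothelial-like and IPC-like cells. Endothelial-like cells had 642 CPM in replicate 1 and 398 CPM in replicate 3, from 347 and 304 UMIs in 26 and 53 cells, and were in none of the comparisons tested. ApoER2 also binds selenoprotein P and apolipoprotein E. IPC-like cells had 369 and 301 CPM, newborn neuron-like cells 189 and 151 CPM, PN-like cells 105 and 101 CPM, MGE interneuron-like cells 91.6 and 102 CPM, Cajal-Retzius-like cells 76.2 and 75.6 CPM and RGC-like cells 53.5 and 47.2 CPM. The first 3 of these classes, endothelial-like, IPC-like and newborn neuron-like, did not overlap with the class below them, while LGE, projection and MGE neurons did. However, 1 endothelial-like cell in each replicate held 63 and 57 of the *Lrp8* UMIs. Without these cells the endothelial-like values were 562 and 347 CPM, and their range overlapped with that of IPC-like cells. Pericyte-like cells (4.19 and 3.25 CPM), the other vascular class, lay below red blood cell-like cells (17.3 and 7.55 CPM).

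*Lrp8* rose from RGC-like to IPC-like cells by 2.74 ± 0.23, adjusted p = 5.22e-08. It then fell at each following step, by 0.86 on the log2 scale from IPC-like to newborn neuron-like cells (SE 0.22, adjusted p = 0.00422) and by 0.69 from newborn to PN-like cells (SE 0.22, adjusted p = 0.0379). The last step was lost with DESeq2 (adjusted p = 0.12) and with predicted doublets kept (adjusted p = 0.0537). Cajal-Retzius-like cells were lower than PN-like cells (-0.75 ± 0.24, adjusted p = 0.0323), a call that did not hold under 5 alternatives, among them library sizes only (-0.44, adjusted p = 0.238). Between MGE interneuron-like and PN-like cells no difference was called (-0.20 ± 0.23, adjusted p = 0.568), nor between Cajal-Retzius-like and MGE interneuron-like cells (-0.55 ± 0.26, adjusted p = 0.108).

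The clusters of neighbouring classes overlapped in part. Among the 4 RGC-like clusters, *Lrp8* stood at 116 and 77.6 CPM in the one led by *Adamts19* and *Tesc*, and between 36.8 and 54.3 CPM in the other 3. The 3 IPC-like clusters ranged from 239.8 to 449.8 CPM. Among newborn neuron-like clusters it was 282 and 179 CPM in the cluster led by *Slc17a6*, *Neurod1* and *Unc5d*, which holds newborn markers among its leading genes, 186 and 158 CPM in that led by *Adamtsl3*, *Ndst3* and *Nrp1*, 183 and 172 CPM in that led by *Tafa1* and *Tfap2d*, and 136 and 108 CPM in that led by *Cdh12*. The PN-like clusters had 122 and 114 CPM (led by *Slit3*), 96.3 and 96.7 CPM (led by *Hs3st4*) and 96.4 and 85.2 CPM (led by *Nap1l5*). The cluster led by *Slit3* overlapped with the newborn cluster led by *Cdh12*, and in replicate 1 the newborn cluster led by *Slc17a6* lay above the lowest IPC-like cluster (277 CPM, led by *Neil3*). These clusters were not tested against each other.

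*Vldlr* gave 2940 UMIs over all kept cells and *Lrp8* 18302, so the *Vldlr* values rest on fewer counts. Projection neuron-like cells had 49.97 CPM in replicate 1 and 48.9 CPM in replicate 3 (736 and 820 UMIs) and lay above every other class in both replicates. LGE neuron-like cells had 39.3 and 46.3 CPM and MGE interneuron-like cells 34.3 and 33.9 CPM. The LGE value of replicate 3 rests on 7 UMIs, 4 of them in 1 cell, and was 20.9 CPM without that cell, so the order of these classes was not resolved. Newborn neuron-like cells had 20.5 and 12.4 CPM, RGC-like cells 15.6 and 8.34 CPM and IPC-like cells 5.62 and 3.85 CPM, the last from 33 and 38 UMIs. No UMI was found in endothelial-like, pericyte-like or red blood cell-like cells of either replicate, which in endothelial-like cells allows up to 5.55 and 3.93 CPM. In Cajal-Retzius-like cells the 2 libraries disagreed, with 11.7 and 45.7 CPM from 8 and 52 UMIs.

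In the lineage, *Vldlr* was lower in IPC-like than in RGC-like cells (-1.33 ± 0.46, adjusted p = 0.0424), higher in newborn neuron-like than in IPC-like cells (1.95 ± 0.45, adjusted p = 0.00267) and higher again in PN-like cells (1.63 ± 0.37, adjusted p = 0.00561). The first of these calls was lost with DESeq2 (adjusted p = 0.1248), with resolution 0.5 (adjusted p = 0.0501) and with the stricter filter on cells (adjusted p = 0.0719), and the last with DESeq2 (adjusted p = 0.0684). No difference was called between MGE interneuron-like and PN-like cells (-0.64 ± 0.42, adjusted p = 0.294), between Cajal-Retzius-like and PN-like cells (-0.97 ± 0.46, adjusted p = 0.16) or between Cajal-Retzius-like and MGE interneuron-like cells (-0.33 ± 0.53, adjusted p = 0.678). Among PN-like clusters it was 66.1 and 68.5 CPM in that led by the deep-layer gene *Hs3st4*, 47.7 and 44.4 CPM in that led by *Nap1l5* and *Kctd8*, and 28.8 and 29.2 CPM in that led by *Slit3* and *Crym*.

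The balance of the 2 receptors was followed as the percentage of their summed UMIs that came from *Vldlr*. Among progenitors it was 22.6 and 15.02% (RGC-like) against 1.501 and 1.26% (IPC-like). It was 9.79 and 7.56% in newborn neuron-like cells, and 32.2 and 32.7% in PN-like cells. The value in IPC-like cells lay below those of the 3 other classes in both replicates, and that in PN-like cells above them. MGE interneuron-like cells had 27.3 and 25.0%, and Cajal-Retzius-like cells 13.3 and 37.7%, from 60 and 138 receptor UMIs. The percentage compares classes. It is not a ratio of receptor molecules, since the 2 transcripts may be captured unequally.

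*Dab1* was highest in PN-like cells at 1713 CPM in replicate 1 and 1458 CPM in replicate 3, with a mean of 1586 ± 181 CPM (SD, n = 2), and this class carried 55.5% of all *Dab1* UMIs. Newborn neuron-like cells had 768 and 458 CPM and RGC-like cells 439.6 and 405 CPM. IPC-like cells, which lie between these in the lineage, had 67.1 and 63.8 CPM. Cajal-Retzius-like cells had 157 and 299.8 CPM, hem or choroid plexus-like cells 422 and 274 CPM (215 CPM in replicate 1 without 1 cell that held 67 of 128 UMIs) and LGE neuron-like cells 272 and 198 CPM. With predicted doublets removed, the lowest neural class was that of MGE interneuron-like cells with 32.1 and 37.4 CPM. This MGE level depended on which cells were kept, as given below. Red blood cell-like cells had 25.9 and 17.0 CPM (9 UMIs each, 7 of those of replicate 1 in 1 cell) and pericyte-like cells 31.4 and 21.1 CPM. A microglia-like value of 254 CPM in replicate 1 rests on 85 UMIs, 62 of them in 1 cell, against 20.02 CPM in replicate 3.

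From RGC-like to IPC-like cells *Dab1* fell by 2.68 on the log2 scale (SE 0.49, adjusted p = 0.000394), and from IPC-like to newborn neuron-like cells it rose (3.34 ± 0.51, adjusted p = 2.99e-05). Both steps run against those of *Lrp8* and held under each alternative. The last step, from newborn to PN-like cells, was 1.41 ± 0.47, adjusted p = 0.0509, higher in both replicates but just outside the threshold. With the replicate as a block the adjusted p was 0.0252, and with the stricter filter on cells the step was 2.87 (adjusted p = 0.000137). Against PN-like cells, *Dab1* was lower both in MGE interneuron-like (-5.63 ± 0.59, adjusted p = 5.61e-07) and in Cajal-Retzius-like cells (-3.10 ± 0.51, adjusted p = 0.00013).

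Cajal-Retzius-like cells held more *Dab1* than MGE interneuron-like cells (2.53 ± 0.54, adjusted p = 0.00141). This call depended on which cells were kept. With predicted doublets kept, the MGE level was 132 and 184 CPM and the difference 0.42 (adjusted p = 0.621), and with the stricter filter on cells the MGE level was 29.1 and 150.2 CPM and the difference 1.29 (adjusted p = 0.0558). In the MGE class 56 and 42 *Dab1* UMIs were spread over 21 and 19 cells, of which the highest held 10 and 8.

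Within the classes of the lineage the *Dab1* level was not uniform. The 4 RGC-like clusters lay between 290.5 and 483 CPM. The IPC-like clusters led by *Neurod4* and *Neil3* had 35.4 and 28.2 CPM and 44.0 and 28.8 CPM, and that led by *Sema3e*, *Smoc1* and *Gadd45g* had 146 and 157 CPM. Among newborn neuron-like clusters the range was wide, from 24.7 and 25.5 CPM in that led by *Slc17a6*, *Neurod1* and *Unc5d* through 208 and 233 CPM in that led by *Adamtsl3*, *Ndst3* and *Nrp1* and 799 and 584 CPM in that led by *Tafa1* and *Tfap2d* to 1499 and 1125 CPM in that led by *Cdh12*. The lowest and highest of these 4 clusters did not overlap with any other in either replicate. The mean of the newborn class therefore depends on its mixture of clusters, and the cluster led by *Tafa1*, which held no newborn marker among its 10 leading genes, made up 449 of 1749 cells in replicate 1 but 163 of 2102 in replicate 3. Without it, a choice made after seeing the data, the step to PN-like cells kept its log2 fold change but passed the threshold (1.41 ± 0.46, adjusted p = 0.0414).

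**Figure D4:**
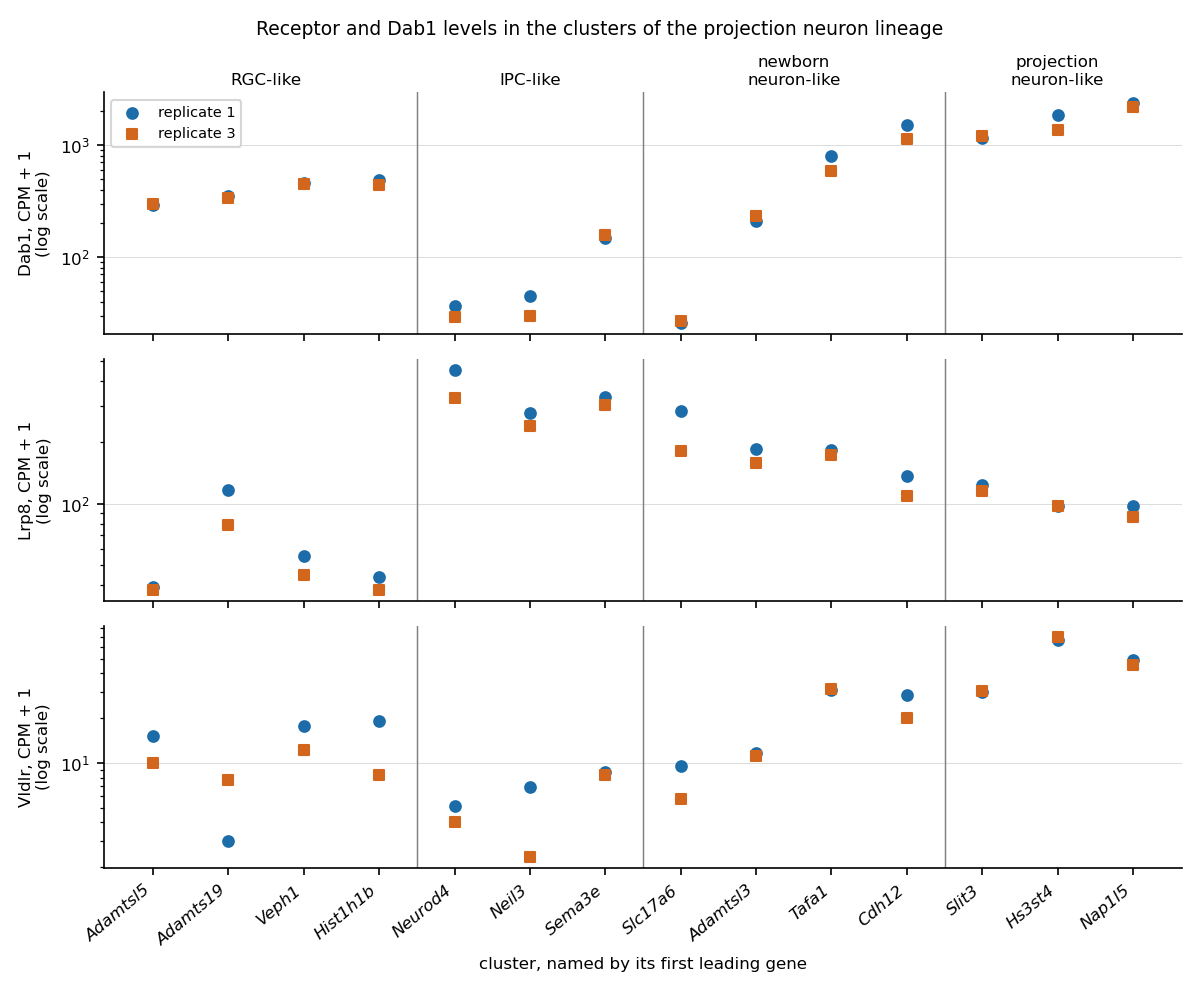
CPM + 1 on a log axis of *Dab1*, *Lrp8* and *Vldlr* in the 14 clusters of the 4 lineage classes, 1 point for each replicate, with clusters ordered within a class by their mean *Dab1* level. *Dab1* dips in the IPC-like clusters and the newborn cluster led by *Slc17a6* and *Neurod1* (24.7 and 25.5 CPM), where *Lrp8* is high (282 and 179 CPM), and *Vldlr* is highest in the PN-like cluster led by *Hs3st4* (66.1 and 68.5 CPM).

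The presence of adaptor and receptor in the same cell was read after thinning to 3000 UMIs, which left out 30 and 44 PN-like, 22 and 42 RGC-like, 38 and 72 newborn neuron-like, 4 and 37 IPC-like, 1 and 3 Cajal-Retzius-like, 68 and 63 MGE interneuron-like and 9 and 34 red blood cell-like cells as too shallow. *Dab1* was found in 86.4% and 84.0% of PN-like cells of replicates 1 and 3, in 63.0% and 63.4% of RGC-like cells, in 49.2% and 39.6% of newborn neuron-like cells, in 14.7% and 15.7% of IPC-like cells and in 4.91% and 7.64% of MGE interneuron-like cells. The MGE shares lay within the intervals of red blood cell-like cells, where 1 of 48 cells (2.08%, 0.369 to 10.9%) and 3 of 60 had a *Dab1* UMI. They depended on the removal of predicted doublets. With these kept, a *Dab1* UMI was found in 11.1% of 296 and 16.4% of 195 MGE interneuron-like cells. *Lrp8* was found in 62.9% and 54.9% of IPC-like cells but in 12.3% and 12.03% of RGC-like cells, and *Vldlr* in 1.54% and 0.765% and 5.56% and 2.77%. *Dab1* together with at least 1 receptor was found in 30.6% and 28.9% of PN-like cells, 20.9% and 12.5% of newborn neuron-like cells, 11.3% and 9.01% of RGC-like cells and 7.92% and 7.54% of IPC-like cells. In MGE interneuron-like cells it was found in 3 of 265 cells (1.13%, 0.386 to 3.27%) and 1 of 157 cells (0.637%, 0.113 to 3.52%). With predicted doublets kept, these MGE shares were 3.04% and 4.10%.

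Without thinning, *Lrp8* was found in 91.0% and 84.0% of IPC-like and 39.7% and 35.7% of RGC-like cells, *Dab1* in 35.6% and 30.7% and 90.8% and 89.3%, and *Dab1* with a receptor in 75.3% and 71.9% of PN-like, 48.9% and 36.8% of newborn neuron-like, 44.6% and 37.5% of RGC-like, 32.4% and 25.3% of IPC-like and 2.70% and 2.73% of MGE interneuron-like cells.

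*Lrp8* was found in a smaller share of cells with a *Dab1* UMI than of cells without one in the 4 classes of the lineage and both replicates, for example in 24.4% of 929 against 38.4% of 146 PN-like cells of replicate 1, and in 53.9% of 76 against 64.5% of 442 IPC-like cells. In RGC-like cells the gap was small, 11.8% of 431 against 13.0% of 253 cells in replicate 1. *Vldlr* went the other way in PN-like, newborn neuron-like and RGC-like cells of both replicates. In PN-like cells its shares were 15.1% against 7.53% in replicate 1 and 13.4% against 12.9% in replicate 3. In IPC-like cells no cell with a *Dab1* UMI had one of *Vldlr*, against 1.81% and 0.908% of the others. These are descriptions of cells of 1 library and were not tested. Both receptors were found together in 3.91% and 2.71% of PN-like and 0% and 0.386% of RGC-like cells. The 0 of 684 RGC-like cells of replicate 1 allows a share of up to 0.439%. Cajal-Retzius-like cells held ligand and adaptor together in 8 of 41 cells (19.5%, 10.2 to 34.0%) and 32 of 83 cells (38.6%, 28.8 to 49.3%). Since nearly every cell of this class had *Reln*, the joint share follows that of *Dab1*, found in 33 of the 83 cells. *Dab1* with a receptor was found in none of the 41 cells of replicate 1, which allows up to 7.32%. With predicted doublets kept, that share was 8.33% of 48 and 16.5% of 91 cells.

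**Figure D5:**
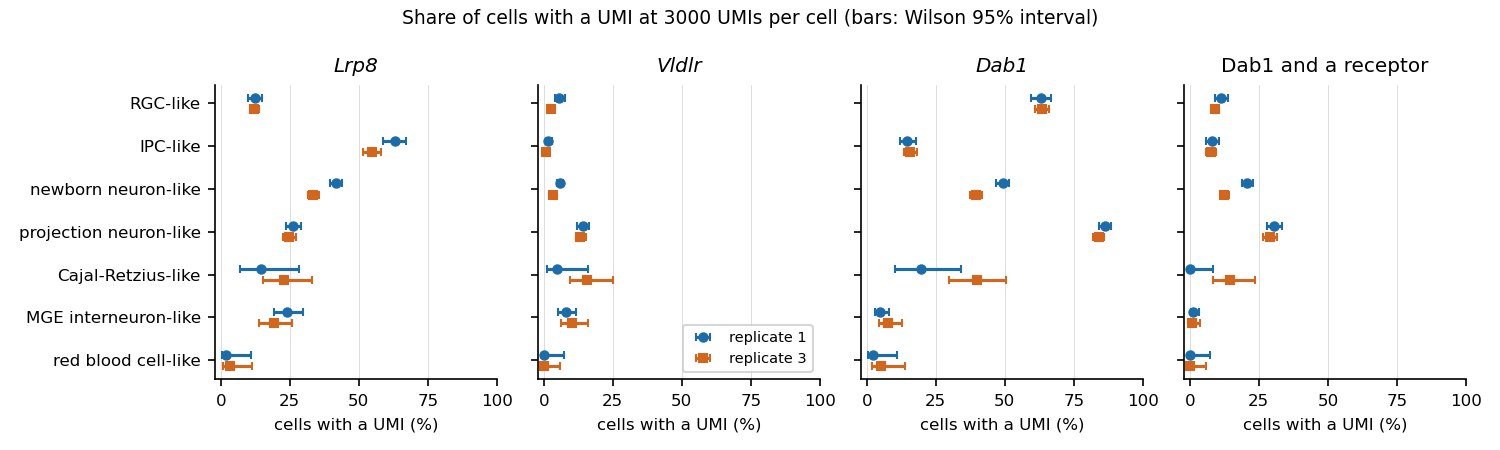
Percentage of cells with a UMI (x axis) of *Lrp8*, of *Vldlr*, of *Dab1*, and of *Dab1* with at least 1 receptor, in 6 classes and in red blood cell-like cells as background, with the Wilson 95% interval and 1 symbol for each replicate. *Lrp8* peaks in IPC-like cells (62.9 and 54.9%) where *Dab1* is low (14.7 and 15.7%), and joint detection is highest in PN-like cells (30.6 and 28.9%).

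A list of 40 further genes of the pathway was examined in the same fits, of which 37 passed the filter on low counts. In IPC-like against RGC-like cells 3 rose and 9 fell, in newborn neuron-like against IPC-like cells 12 rose and 2 fell, and in PN-like against newborn neuron-like cells 4 rose and 4 fell. MGE interneuron-like against PN-like cells gave 5 higher and 6 lower, Cajal-Retzius-like against PN-like cells 0 higher and 7 lower (3 and 8 at an unadjusted p below 0.05, and 2 and 6 by DESeq2), and Cajal-Retzius-like against MGE interneuron-like cells 3 higher and 8 lower. With library sizes only, the balance was 5 higher and 5 lower between Cajal-Retzius-like and PN-like cells, 6 and 4 between Cajal-Retzius-like and MGE interneuron-like cells, and 6 and 3 between MGE interneuron-like and PN-like cells, so none of these 3 comparisons gave a direction for the list. In percent of the 37, the 12 that rose in newborn neuron-like cells are 32.4%, beside 16.3% of all genes, and the median log2 fold change of the list there was 0.20 beside 0.00 over all genes. The 0 and 7 in Cajal-Retzius-like cells are 0 and 18.9% beside 10.9 and 10.3%, with medians of -0.11 and -0.05. In IPC-like against RGC-like cells 8.11% of the list rose and 24.3% fell, beside 10.2 and 16.0% of all genes. In PN-like against newborn neuron-like cells both shares were 10.8%, beside 7.17 and 6.38%. MGE interneuron-like against PN-like cells gave 13.5 and 16.2%, beside 11.7 and 15.1%, and Cajal-Retzius-like against MGE interneuron-like cells 8.11 and 21.6%, beside 17.4 and 15.4%.

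Among the ligands and proteases, *Adamts3*, which encodes a protease that cleaves and inactivates reelin, fell and rose at the same 2 steps of the lineage as *Dab1*. Its level was 79.7 and 40.6 CPM in RGC-like, 12.6 and 11.1 CPM in IPC-like, 106 and 62.8 CPM in newborn neuron-like and 396 and 378 CPM in PN-like cells. It fell at the first step by 2.33 on the log2 scale (SE 0.40, adjusted p = 0.000177) and rose at the other two (2.95 ± 0.40, adjusted p = 7.58e-06, and 2.24 ± 0.36, adjusted p = 0.000178). In MGE interneuron-like cells 6 and 7 UMIs were found, a difference of -6.50 ± 0.56, adjusted p = 4.69e-08 from PN-like cells, and Cajal-Retzius-like cells were lower as well (-5.08 ± 0.51, adjusted p = 3.56e-07). *Thbs1*, which encodes thrombospondin-1, another ligand of both receptors, was instead high in MGE interneuron-like cells. It stood at 85.3 and 73.9 CPM in MGE interneuron-like and 0.543 and 0.418 CPM in PN-like cells (7.22 ± 0.45, adjusted p = 1.31e-09), with 0 and 1 UMIs in Cajal-Retzius-like cells. *Spon1*, which encodes F-spondin, a ligand of ApoER2, was lower in IPC-like than in RGC-like cells (-3.51 ± 0.58, adjusted p = 0.000128).

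Among co-receptors, *Efnb2*, which encodes an ephrin-B, rose from IPC-like to newborn neuron-like cells (1.49 ± 0.28, adjusted p = 0.000273) and *Efnb3* rose with it (1.15 ± 0.28, adjusted p = 0.00366), whereas *Efnb1* was lower there (-0.75 ± 0.22, adjusted p = 0.0119) and fell at each of the 3 lineage steps. In MGE interneuron-like cells *Efnb2* had 299 and 314 CPM against 142 and 144 CPM in PN-like cells (0.996 ± 0.28, adjusted p = 0.0111) and 93.7 and 93.2 CPM in Cajal-Retzius-like cells. Among genes of receptor traffic, *Lrpap1*, which encodes a chaperone of the receptor family, rose to newborn neuron-like cells (1.11 ± 0.22, adjusted p = 0.000586) and was lower in PN-like cells (-0.95 ± 0.22, adjusted p = 0.00531). *Mylip*, which encodes a ubiquitin ligase that removes these receptors, was higher in PN-like than in newborn neuron-like cells (1.29 ± 0.37, adjusted p = 0.0219). Its levels were low, 2.78 and 3.58 CPM (41 and 60 UMIs) against 1.61 and 1.04 CPM (30 and 22 UMIs). *Snx17*, a receptor recycling gene, was higher in Cajal-Retzius-like than in MGE interneuron-like cells (0.86 ± 0.25, adjusted p = 0.0114).

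Of the kinases that phosphorylate Dab1, *Fyn* had log2 fold changes between -0.62 and 0.63 in the 6 comparisons and a lowest adjusted p of 0.236, while *Yes1* (1.17 ± 0.25, adjusted p = 0.00188) and *Src* (0.89 ± 0.24, adjusted p = 0.00891) were higher in MGE interneuron-like than in PN-like cells. Of the 13 effectors, *Pik3r1*, a regulatory subunit of phosphatidylinositol 3-kinase, rose from RGC-like to IPC-like cells (1.85 ± 0.39, adjusted p = 0.00139), *Limk1*, a kinase of cofilin, rose in newborn neuron-like cells (1.20 ± 0.26, adjusted p = 0.00129), and *Cdh2*, N-cadherin, was lower in Cajal-Retzius-like than in PN-like cells (-1.34 ± 0.35, adjusted p = 0.00878). Of the genes of Dab1 turnover, *Socs7* rose in newborn neuron-like cells (0.75 ± 0.18, adjusted p = 0.00336) and *Rnf7* was higher in Cajal-Retzius-like than in MGE interneuron-like cells (0.72 ± 0.25, adjusted p = 0.0294). *Cdk5r1*, the activator of the kinase Cdk5 that acts beside reelin in neuronal positioning, rose from IPC-like to newborn neuron-like cells (2.44 ± 0.25, adjusted p = 2.73e-07), as did *Cdk5* (0.95 ± 0.17, adjusted p = 0.000157).

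Genes outside the members and the marker lists were ranked by their likeness to each member. Cell type markers, among them those of Cajal-Retzius and GABAergic cells, could therefore not appear. The measure was the Pearson correlation of log2(CPM + 1) over 13 classes, taking the lower of the 2 replicates. The 5 genes ranked first for *Reln* were *Cntnap2* (r of 0.88 and 0.95 in replicates 1 and 3), *Gm10475*, *Cacna2d3*, *5330413P13Rik* and *Ly6h*. For *Lrp8* they were *Ccdc88c* (0.84 and 0.86), *Limch1*, *Pik3c2b*, *Palmd* and *Cd1d1*. The list for *Vldlr* was *Dclk1* (0.93 and 0.92), *Nlgn3*, *Mras*, *Tspoap1* and *Tmem108*, and that for *Dab1* was *Tenm4* (0.87 and 0.87), *Fat3*, *Rnf182*, *Sybu* and *Ttc9*. Between the members themselves, *Vldlr* and *Dab1* gave 0.74 and 0.81, *Reln* and *Vldlr* 0.62 and 0.88, and *Lrp8* and *Dab1* 0.12 and 0.30. The 13 points of a correlation come from 1 library each and differ in depth, from 151202 to 21117773 UMIs, so these values are descriptions.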

How the data were processed

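Dorsal telencephalon of E14.5 mice was dissociated with papain, and 2 libraries of 3' ends were made with the 10x Genomics v3.1 chemistry. The deposited values are counts, raw UMIs per gene and barcode, which the authors made with Cell Ranger 7.0.0, and the submitters' processing notes name mm10. The annotation, the intron setting and the cell calling are not given in the sources used here. Because UMIs come from 3' ends, levels were compared between classes and not between genes.

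Cells needed between 1500 and 60000 UMIs with less than 10% of them mitochondrial (710 and 1387 removed in replicates 1 and 3), and 269 and 531 predicted doublets were removed at 0.8% per 1000 barcodes. Clusters were made with scanpy 1.11.5 (Python 3.11.15) and leidenalg 0.10.2 from 2000 variable genes, 30 components and 15 neighbours at resolution 1.0, with the 4 members and 40 pathway genes left out, and named where at least 3 of the markers of 1 type were detected. Markers were 129 genes of 16 lists. UMIs were summed per class and replicate over 13 classes with at least 20 cells in each, and 13472 genes were tested in 1 fit with edgeR 4.0.16 (R 4.3.3; TMM, quasi-likelihood test, Benjamini-Hochberg over all genes, threshold 0.05). Adjusted p-values in the text are from this test unless DESeq2 (1.42.0) is named. The test was also run on counts simulated with the fitted spread and independent samples. That simulation could not show the effect of libraries shared by all classes. Thinned shares used 3000 UMIs per cell and Wilson intervals.

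The replicate numbers mark the library from which all sums of that number come. Deviations of the classes compared correlated between 0.0922 and 0.346 over genes, and the fit with the replicate as a block was an alternative. Others were DESeq2, library sizes, cell and gene filters, doublets kept, resolutions 0.5 and 2.0, only the 2 classes compared, and each replicate alone. The members, markers and pathway list were chosen with earlier results of these data known. Named were the 4 members and, per functional group of the pathway list, up to 3 genes past the threshold with the largest absolute fold change, plus the 5 genes most like each member. The planned comparison of CGE with MGE interneurons was not run at resolution 1.0, where no CGE cluster was named. Clusters named beside the members were chosen after their values were seen.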

Additional observations from a re-analysis of the deposited data

How the results depend on the processing

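Of 24 fold changes of the 4 genes, 16 were called, in comparisons that each called between 13.5% and 32.9% of all 13472 genes tested. Over 166 settings of these 16 the call was kept in 153, lost in 13 and reversed in 0, and 11 kept it in every setting run. The count of genes called between PN-like and newborn neuron-like cells was 1825, and 3299 at resolution 0.5 and 3471 with the stricter cell filter. Log2 fold changes that lost their call were, for *Lrp8* in Cajal-Retzius-like against PN-like cells, -0.66 (DESeq2), -0.61 (doublets kept), -0.44 (library sizes only), -0.65 (no cell filter) and -0.16 (resolution 0.5); for *Vldlr* in IPC-like against RGC-like cells, -1.38 (DESeq2), -1.26 (resolution 0.5) and -1.11 (stricter cell filter); in PN-like against newborn neuron-like cells, for *Lrp8* -0.61 (DESeq2) and -0.69 (doublets kept) and for *Vldlr* 1.70 (DESeq2); and for *Dab1* in Cajal-Retzius-like against MGE interneuron-like cells, 0.42 (doublets kept) and 1.29 (stricter cell filter). Those that gained a call were *Vldlr* in Cajal-Retzius-like against PN-like cells, -1.32 (no cell filter), -1.03 (no low-count filter) and -1.79 (resolution 0.5); *Reln* in IPC-like against RGC-like cells, 1.82 (no cell filter), 0.82 (no low-count filter), 0.79 (only the 2 classes), 1.55 (resolution 0.5), 1.47 (resolution 2.0) and 1.60 (stricter cell filter); *Dab1* in PN-like against newborn neuron-like cells, 1.85 (doublets kept), 1.41 (marked newborn clusters), 1.39 (no low-count filter), 1.41 (only the 2 classes), 1.43 (replicate block), 2.79 (resolution 0.5), 1.93 (resolution 2.0) and 2.87 (stricter cell filter); *Vldlr* in MGE interneuron-like against PN-like cells, -0.74 (no low-count filter) and -0.64 (only the 2 classes); and *Lrp8* in Cajal-Retzius-like against MGE interneuron-like cells, -0.64 (stricter cell filter). Uncalled differences that changed sign were *Reln* in PN-like against newborn neuron-like cells, 0.15 (resolution 2.0), and *Lrp8* in MGE interneuron-like against PN-like cells, 0.023 (doublets kept) and 0.0018 (stricter cell filter). The cause was not tested. Apart from *Dab1*, the replicate block changed no call of the 4 genes.

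With 1 replicate left out no test is possible, since no residual degrees of freedom remain, and the values ranged from -0.75 to -0.74 for *Lrp8* and from -2.38 to -0.42 for *Vldlr* in Cajal-Retzius-like against PN-like cells, from 1.79 to 1.99 for *Vldlr* in newborn neuron-like against IPC-like cells, and from -1.73 to 0.21 for *Vldlr* in Cajal-Retzius-like against MGE interneuron-like cells. With library sizes only, the median log2 fold change of all genes moved from -0.05 to 0.24 in Cajal-Retzius-like against PN-like cells, from 0.00 to 0.17 against MGE interneuron-like cells and from 0.00 to -0.11 in newborn neuron-like against IPC-like cells. Few *Vldlr* UMIs in IPC-like (33 and 38) and Cajal-Retzius-like cells (8 and 52) limit those values.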
